A study of Homo sapiens with 6 samples.

Results

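Transcripts of 7 genes that report ERK signalling, DUSP6, EGR1, FOS, MYC, CCND1, PHLDA1 and IER3, were examined in SKBR3 cells through 8 probes of an Illumina bead array that carried 47231 probes. The probes were picked out by their identifiers for the genes' place in the pathway, and the rule used no threshold on their values, although earlier results of these arrays were known when it was written. The gene of each probe was stated with that choice and was not checked against the array's annotation, which was not used here, so each gene name below stands for the probe printed beside it. SKBR3 is an established human breast cancer cell line with amplified HER2, a receptor tyrosine kinase. There were 3 arrays of cells overexpressing CDCP1 and 3 arrays of GFP control cells, and CDCP1 is a transmembrane glycoprotein that SRC family kinases phosphorylate. All cells were grown in vitro, the 6 arrays shared 1 slide, and the labels give neither the vector nor whether a line was a clone or a pool. The labels number the samples of each group 1 to 3 without saying that they were separate cultures, so a p-value here is set against the variation among those samples, part or all of which may be technical. Neither the CDCP1 transcript nor markers of SKBR3 or of other cell types were analysed here, so the overexpression and the cell line rest on the labels.

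ERK is the last kinase of the RAS, RAF and MEK cascade, through which growth factor receptors such as HER2 signal. Active ERK phosphorylates ETS-family factors that sit with SRF on immediate early genes, which are transcribed within minutes and without new protein synthesis. EGR1 and FOS, both transcription factors, are textbook examples of this class. IER3 is an early response gene with roles in cell survival, and it answers NF-kB and p53 as well as ERK. PHLDA1 encodes a pleckstrin homology-like domain protein and DUSP6 a phosphatase that removes phosphate from ERK in a negative feedback. MYC, a transcription factor of growth, is also an immediate early gene, whereas CCND1, the cyclin D1 that drives entry into S phase, is induced later.

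RefSeq promoters (GRCh38.p14, 250 bases before to 50 bases from the transcript start) were taken for 4 of the 7 genes: DUSP6, EGR1, FOS and PHLDA1. IER3 and CCND1 had no match. No entry for MYC was used, so MYC was not searched. The windows of the 4 genes were searched on both strands for 4 motifs. These were the CArG box, to which SRF binds, the ETS core CCGGAA, the CRE TGACGTCA and the AP-1 motif TGANTCA. No 2 of these motifs contain each other. The EGR1 and PHLDA1 windows are shown because they hold the matches, which stand in capitals.

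EGR1 promoter, chr5:138465229-138465528, plus strand: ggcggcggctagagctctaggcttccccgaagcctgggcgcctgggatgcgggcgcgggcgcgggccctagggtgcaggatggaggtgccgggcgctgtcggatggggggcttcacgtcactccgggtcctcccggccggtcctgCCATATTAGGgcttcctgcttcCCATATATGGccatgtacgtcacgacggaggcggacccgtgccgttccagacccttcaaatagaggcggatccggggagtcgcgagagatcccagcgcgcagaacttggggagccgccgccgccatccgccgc
PHLDA1 promoter, chr12:76031727-76032026, minus strand: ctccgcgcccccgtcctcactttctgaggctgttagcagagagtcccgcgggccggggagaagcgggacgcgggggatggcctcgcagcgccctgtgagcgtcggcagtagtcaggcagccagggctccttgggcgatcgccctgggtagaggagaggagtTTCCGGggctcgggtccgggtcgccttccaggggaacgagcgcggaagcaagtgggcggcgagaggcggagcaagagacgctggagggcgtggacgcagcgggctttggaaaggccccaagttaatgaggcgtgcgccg

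The EGR1 window holds 2 CArG boxes, with first bases at -105 and -83 from the start, a motif found in 1.29% of 35116 promoter windows of this length. The PHLDA1 window holds 1 ETS core at -89, read on the opposite strand, which is found in 17.2% of the windows. The CRE is found in 1.85% and the AP-1 motif in 7.71%, and neither is among these letters in the windows of the 4 genes. The DUSP6 and FOS windows hold none of the 4 motifs. Bases more than 250 before the start were not searched, so a site further upstream would be missed for any of these genes. A match describes the sequence, and no binding was measured.

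Of the 8 probes, 7 lay above the estimated background on at least 3 of the 6 arrays and were tested together with the other probes of that kind, 31511 in all. Background was set at a log2 signal of 6.68, from the peak of the dimmest probes. Taking a Benjamini-Hochberg adjusted p of 0.05 in limma as the threshold, 5.26% of all tested probes were called, 2.61% higher and 2.64% lower in the CDCP1 cells. Of the 7 tested probes 1 passed, IER3, which was lower. The other 6 did not pass: 5 had a fitted change above 0 and 1 a change below 0. The median log2 change of the 7 was 0.06, beside -0.00412 over all tested probes. The 2 groups of arrays did not overlap for 2 of the 7, DUSP6 and IER3, against 22% of all tested probes. Because whole cultures were measured, fewer cells carrying a transcript and less of it per cell cannot be told apart.

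CDCP1 replicate 1 stood apart from the other CDCP1 arrays. Over all tested probes, the SD of its log2 difference from CDCP1 replicates 2 and 3 was 0.186 and 0.197, against 0.129 between those 2 and 0.119 to 0.139 between GFP arrays. It was the highest or the lowest CDCP1 array in 7 of the 7 tested probes: the highest for DUSP6, EGR1, FOS, MYC and PHLDA1, and the lowest for IER3 and CCND1. Among all tested probes it held such a place in 76.7%. CDCP1 replicate 3 held one in 6 of the 7, against 64.3% of all tested probes, and replicate 2 in 1, against 59.0%. Results that rest on replicate 1 are given with and without it.

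**Figure D1:**
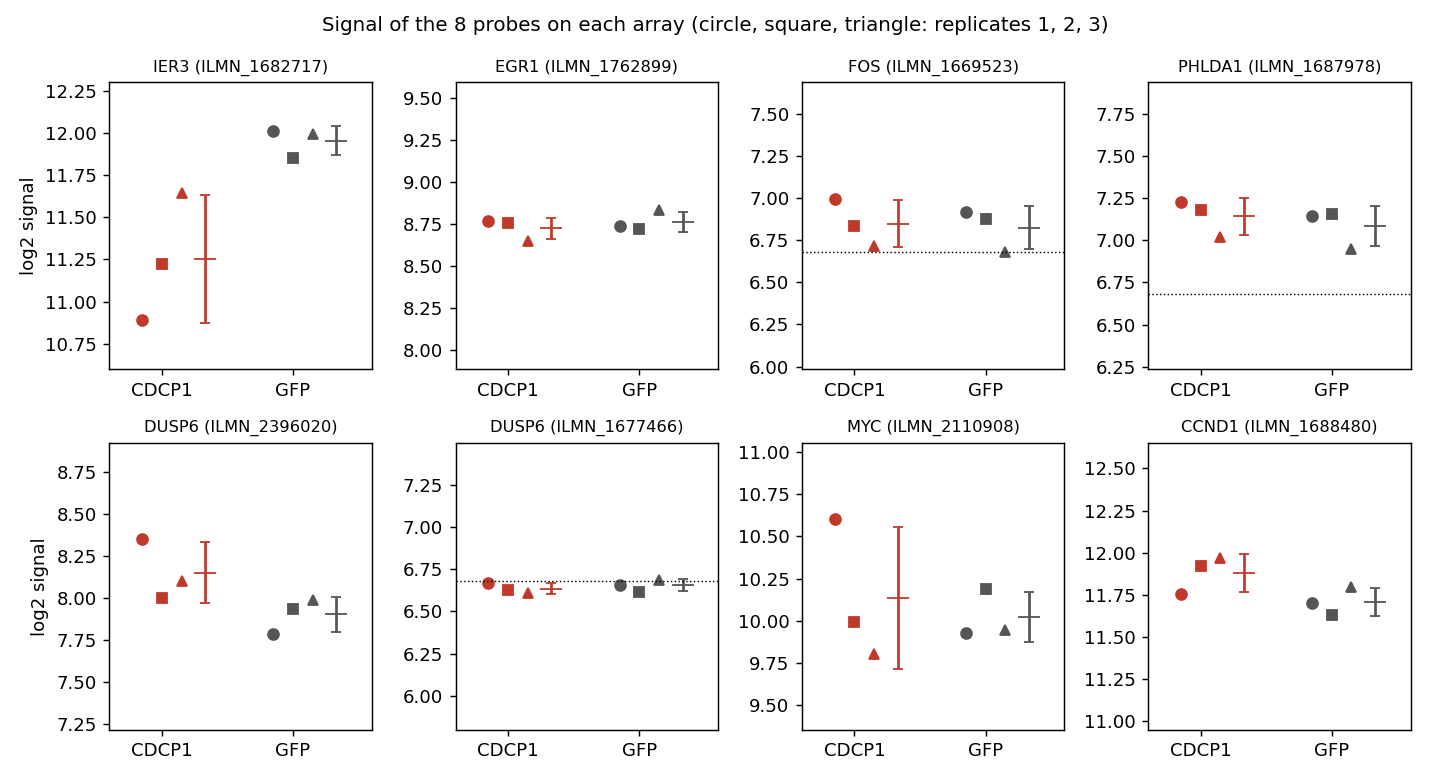
Log2 signal (vertical axis, the same span in each panel) of the 8 probes on the 3 CDCP1 arrays (red) and the 3 GFP arrays (grey), with the mean and SD of each group as a bar to the right. The dotted line is the background limit of 6.68. IER3 is lower on all 3 CDCP1 arrays, and MYC is set apart by 1 CDCP1 array.

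Among the early response genes, IER3 fell in the CDCP1 cells. Its probe, ILMN_1682717, had log2 signals of 10.89, 11.22 and 11.65 on CDCP1 arrays 1, 2 and 3, against 12.01, 11.85 and 11.996 on GFP arrays 1, 2 and 3. Every CDCP1 array lay below every GFP array, and the closest CDCP1 and GFP values were 0.21 apart on the log2 scale. The group means were 11.25 ± 0.38 in CDCP1 cells and 11.95 ± 0.09 in GFP cells (SD, n = 3 each). The CDCP1 cells differed by -0.70 on the log2 scale (95% interval -1.02 to -0.38, SE 0.147, adjusted p = 0.0192 in limma), which puts the CDCP1 cells at 0.615 of the GFP level, with an interval of 0.492 to 0.769.

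The fall of IER3 was large for these arrays: its absolute change exceeded that of 99.7% of tested probes, and 44 of the 31511 had a lower fitted change. Its size was uneven among the CDCP1 arrays. Relative to the GFP mean, CDCP1 replicate 1 stood at 0.478, replicate 2 at 0.602 and replicate 3 at 0.808. The SD of the CDCP1 arrays was larger for IER3 than for 99.3% of tested probes, whereas its SD among GFP arrays exceeded that of 68.5%.

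Whether IER3 passed the threshold depended on which array was left out. Its direction could not turn that way, because the 2 groups of arrays did not overlap. Without CDCP1 replicate 1 the log2 change was -0.52 and it still passed (limma adjusted p = 0.0101), and without CDCP1 replicate 3 it was -0.90 (limma adjusted p = 0.000661). Without CDCP1 replicate 2 it was -0.69 and no longer passed (limma adjusted p = 0.0808). The same held without GFP replicate 1, 2 or 3, where it was -0.67, -0.75 and -0.68 (limma adjusted p = 0.0772, 0.0584 and 0.0956). The values without 1 array rest on fewer samples. It also missed the threshold without the filter on dim probes (limma adjusted p = 0.077), at the same log2 change of -0.70.

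EGR1 showed no detectable change. Its probe, ILMN_1762899, had log2 signals of 8.77, 8.76 and 8.65 on the CDCP1 arrays, against 8.74, 8.72 and 8.83 on the GFP arrays. The groups overlapped, and CDCP1 replicates 1 and 2 lay within the range of the GFP arrays. Its fitted log2 change was -0.04 (95% interval -0.18 to 0.10, SE 0.065, adjusted p = 0.857 in limma). With 1 array left out it ran from -0.06 to -0.0017, the value nearest 0 being without CDCP1 replicate 3, and it was -0.0046 without GFP replicate 3. A value this close to 0 gives EGR1 no direction. As a fold over GFP cells the interval of this fit runs from 0.882 to 1.07, and its width depends on the setting. With part of the background removed (normexp) it was wider, -0.23 to 0.15 on the log2 scale. Without the filter on dim probes it was narrower, -0.16 to 0.08. EGR1 is the gene whose window holds both CArG boxes printed above.

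FOS lay close to background. Its probe, ILMN_1669523, had log2 signals of 6.99, 6.83 and 6.72 on the CDCP1 arrays, against 6.92, 6.88 and 6.68 on the GFP arrays, of which 3 of 3 and 2 of 3 were above the limit. The values of the groups interleaved, and the lowest array of all was GFP replicate 3, just under the limit. The fitted log2 change of FOS was 0.02 (95% interval -0.17 to 0.22, SE 0.0875, adjusted p = 0.944 in limma). It turned to -0.05 without CDCP1 replicate 1 and to -0.05 without GFP replicate 3, so no direction can be given for FOS. Differences can be compressed this near to background, so a fold read from this probe may be too small, which was not measured. With part of the background removed (normexp), its log2 change was 0.04 with a 95% interval of -0.23 to 0.31.

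PHLDA1, through ILMN_1687978, had log2 signals of 7.23, 7.18 and 7.02 on the CDCP1 arrays, against 7.15, 7.16 and 6.95 on the GFP arrays. The groups overlapped, and replicate 3 was the lowest array of each group, as it was for FOS. For PHLDA1 the log2 change was 0.06 (95% interval -0.12 to 0.23, SE 0.08, adjusted p = 0.82 in limma), which is within the spread of the arrays. It was 0.02 without CDCP1 replicate 1 and -0.01 without GFP replicate 3. This probe was also dim, with group means of 7.14 and 7.08 in CDCP1 and GFP cells against the limit of 6.68. With part of the background removed (normexp), the log2 change of PHLDA1 was 0.08 with a 95% interval of -0.16 to 0.32.

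**Figure D2:**
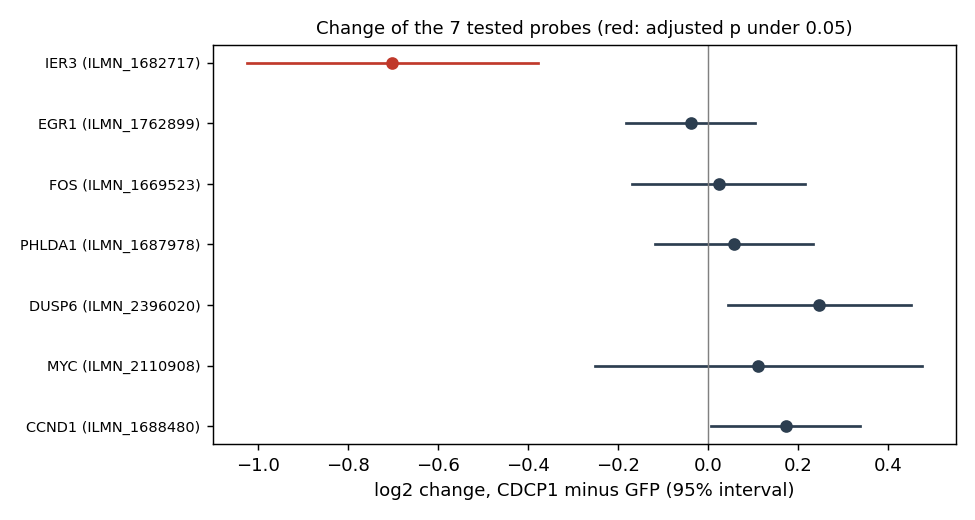
Log2 change, CDCP1 minus GFP, of the 7 tested probes (horizontal axis), with its 95% interval from limma as a line. IER3, in red, lies at -0.70 with its whole interval below 0. The intervals of EGR1, FOS, PHLDA1 and MYC include 0, and those of DUSP6 and CCND1 begin just above 0 without passing after adjustment.

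DUSP6, the feedback phosphatase, was read by 2 probes. The brighter, ILMN_2396020, had log2 signals of 8.35, 8.00 and 8.10 on the CDCP1 arrays, against 7.79, 7.94 and 7.99 on the GFP arrays. All CDCP1 arrays lay above all GFP arrays, but the closest values, CDCP1 replicate 2 and GFP replicate 3, were 0.0122 apart. This probe changed by 0.25 on the log2 scale (95% interval 0.04 to 0.45, SE 0.0924), or 1.19-fold, and it did not pass after adjustment (limma adjusted p = 0.182, unadjusted p = 0.0215). CDCP1 replicate 1 carried much of it, at 1.36 times the GFP mean, while replicates 2 and 3 stood at 1.07 and 1.15 times. Without that array the log2 change was 0.15 (95% interval -0.02 to 0.31, limma adjusted p = 0.329).

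The other DUSP6 probe, ILMN_1677466, gave no second reading of the gene. It had log2 signals of 6.67, 6.63 and 6.61 on the CDCP1 arrays, against 6.66, 6.62 and 6.69 on the GFP arrays, and rose over the limit of 6.68 on GFP replicate 3 alone. It was not well above background in either group and was left out of the test. The result for DUSP6 therefore rests on 1 probe.

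MYC varied more among the CDCP1 arrays than between the groups. Its probe, ILMN_2110908, had log2 signals of 10.61, 9.99 and 9.80 on the CDCP1 arrays, against 9.93, 10.19 and 9.95 on the GFP arrays. CDCP1 replicate 1 was the highest of the 6 arrays and CDCP1 replicate 3 the lowest. The SD among CDCP1 arrays, 0.421, was larger than for 99.5% of tested probes, and the SD among GFP arrays was 0.146. Between the groups the log2 change was 0.11 (95% interval -0.25 to 0.47, SE 0.165, adjusted p = 0.834 in limma). Without CDCP1 replicate 1 it turned to -0.12 (95% interval -0.32 to 0.07, limma adjusted p = 0.528), so no direction can be given for MYC.

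CCND1, through ILMN_1688480, had log2 signals of 11.75, 11.92 and 11.97 on the CDCP1 arrays, against 11.70, 11.63 and 11.79 on the GFP arrays. CDCP1 replicates 2 and 3 lay above every GFP array, and CDCP1 replicate 1 lay among them. CCND1 differed by 0.17 on the log2 scale (95% interval 0.01 to 0.34, SE 0.075), or 1.13-fold, and it did not pass after adjustment (limma adjusted p = 0.266, unadjusted p = 0.0419). Without CDCP1 replicate 1 the log2 change was 0.24 (95% interval 0.08 to 0.39, limma adjusted p = 0.0651). Here the array that stood apart lowered the fitted change, whereas for DUSP6 it raised it.

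**Figure D3:**
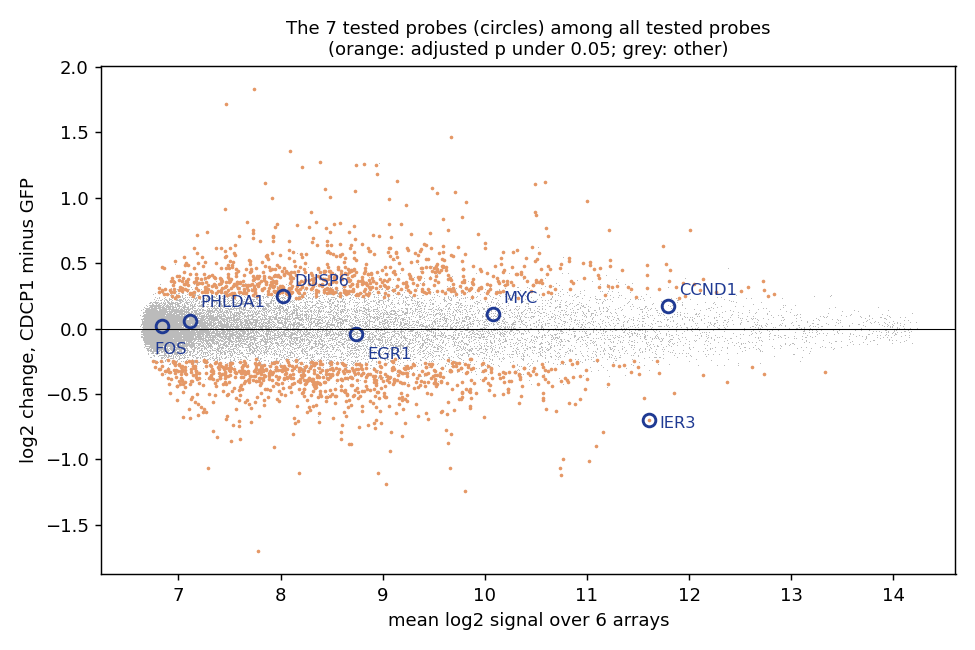
Log2 change, CDCP1 minus GFP, against the mean log2 signal of the 31511 tested probes, with those past an adjusted p of 0.05 in orange and the 7 tested probes of the ERK output genes circled. IER3 lies among the bright probes with a low change, and the other 6 were not called.

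**Figure D4:**
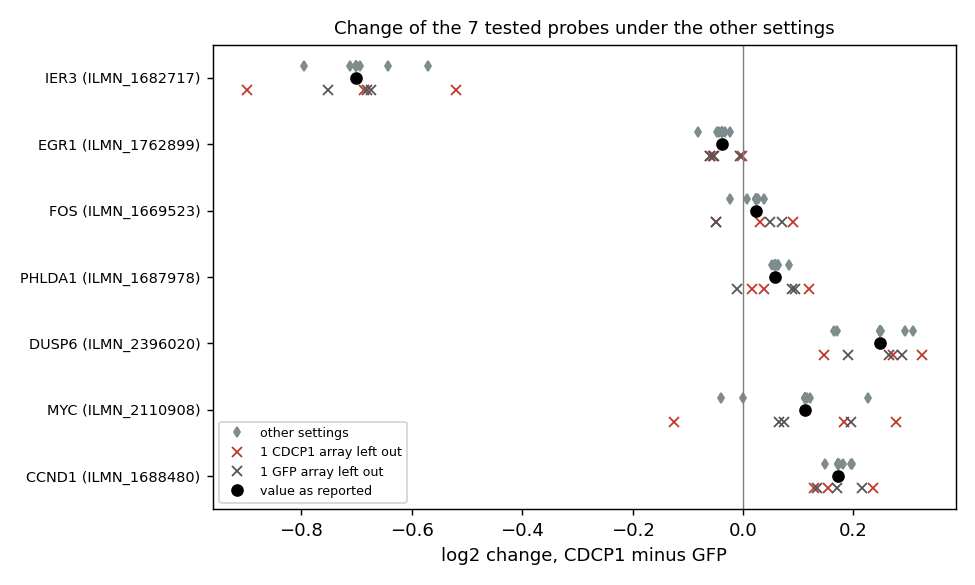
Log2 change of the 7 tested probes as reported (black), with 1 CDCP1 array left out (red crosses), with 1 GFP array left out (grey crosses) and under the other settings (grey diamonds). IER3 stays between -0.90 and -0.52, whereas values of MYC, FOS and PHLDA1 fall on both sides of 0.

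Over the settings shown in that plot, IER3 had the same sign in 16 of 16 alternatives and passed in 11. DUSP6 (ILMN_2396020) and CCND1 also had the same sign in 16 of 16, and passed in 0. EGR1 passed in 0 as well, at log2 changes of -0.08 to -0.0017. Part of the count of signs was fixed beforehand. The filters, the variance model and the block cannot move a log2 change. For IER3 and DUSP6 (ILMN_2396020) the groups did not overlap, so leaving out arrays could not turn the sign. Without both CDCP1 replicate 1 and GFP replicate 2, IER3 changed by -0.57 (limma adjusted p = 0.0237). These 2 arrays deviated from their groups together (r = 0.38 across the tested probes). That was the highest r of a CDCP1 with a GFP array, the lowest being -0.30. Deviations from the mean cancel within each group, so these r depend on each other. The setting without both arrays was chosen after the values had been seen.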

How the data were processed

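Biotin-labelled cRNA from total RNA was hybridised to Illumina arrays, and GenomeStudio (no version named) is the tool the authors used, per the submitters' processing notes. The values the authors deposited are log2 signals, 6.45 to 14.35, already brought to nearly the same distribution between arrays, as the values show; how they were normalized, and whether the transform is exactly log2, is not stated there. The deposited table named as non-normalized held the same values (largest difference 0).

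The comparison, CDCP1 minus GFP, was fitted over all 31511 tested probes (66.7% of 47231) in limma 3.58.1 under R 4.3.3 (lmFit, eBayes), two-sided and adjusted by Benjamini-Hochberg at 0.05. The code of the fit was checked beforehand on simulated data with known changes. Without detection p-values in the files used here, the background limit was the mode of all values (6.62, kernel bandwidth 0.01) plus 1.645 SDs of the values below it (SD 0.0407), exceeded on at least 3 arrays. With 6 arrays the median half-width of a 95% interval was 0.155 on the log2 scale, and their number limits the precision.

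All 8 probes were named by rule. The members and lists were chosen with earlier results of these data known, though not by a threshold on them. Planned gene lists, cell type markers, the CDCP1 transcript and genes of like pattern were not analysed, since no table paired other probes with genes. Alternatives covered background correction (normexp, offset 50), scaling, filters, variance model, array weights, block, slide position and left-out arrays.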

Additional observations from a re-analysis of the deposited data

How the results depend on the processing

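The count of called probes was 1657, and of 112 alternative values for the 8 probes, 6 reversed in sign and 5 lost the call, all 5 of IER3. The 112 are not independent checks. Those from the filters, the variance model and the block keep each log2 change as reported and could not reverse. IER3 gave an adjusted p of 0.077 in limma without a filter on dim probes, at a log2 change of -0.70, and its log2 change ran from -0.90 to -0.52 with 1 array left out. No probe but IER3 passed under any alternative, among which adjusted p in limma was lowest for CCND1 without CDCP1 replicate 1 (0.0651). FOS reversed with 1 array left out (-0.0497 to 0.0898), MYC did (-0.12 to 0.28) and PHLDA1 did (-0.0102 to 0.12), while EGR1 ran from -0.06 to -0.0017. Without both CDCP1 replicate 1 and GFP replicate 2, FOS stood at -0.02 and MYC at -0.04; the cause was not tested.

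The count of called probes was 2611 with array weights, 1085 when the number in the title served as a replicate block and 613 to 2132 with 1 array left out (711 without CDCP1 replicate 2, and 778, 689 and 613 without GFP replicate 1, 2 and 3); the cause was not tested. Same-numbered arrays deviated from their group means with r of -0.27, -0.30 and 0.16, so the numbers were not treated as pairing, and under the block IER3 kept its log2 change of -0.70 (limma adjusted p = 0.0222). The stricter filter left FOS untested. Signal over background limits FOS, PHLDA1 and the dimmer DUSP6 probe, and gene list counts were not run.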
